A study of Mus musculus with 8 samples.

Results

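The cytosolic ribosomal protein genes were examined in RNA sequencing of mouse colon epithelium. They were chosen by symbol, as every Rpl, Rps or Rplp gene with a number, with an optional a, x or l and digit after it, together with Rpsa. Rows named as pseudogenes (-ps) were left out. The rule found 89 of the 53379 genes in the deposited tables. Of these, 53 belong to the large (60S) subunit and 36 to the small (40S) subunit. The annotation calls 83 of them protein-coding and 6 pseudogenes, namely Rps4l, Rps12l1, Rpl32l, Rpl6l, Rps3a2 and Rps3a3.

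Epithelial cells were shaken off the distal colon of C57BL/6 mice, and the 8 libraries formed 4 groups of 2. The groups were RORaΔIEC mice given dextran sulfate sodium (KO DSS), RORaf/f mice given it (WT DSS), untreated RORaΔIEC mice (KO untreated) and untreated RORaf/f mice (WT untreated). RORaΔIEC stands for loss of Rora, a nuclear receptor gene, in intestinal epithelium. RORaf/f mice carry the floxed gene without that loss. Dextran sulfate sodium (DSS) injures the colon lining. The mice drank it for 5 days at 2% (w/v) and then drank plain water for 3 days. The Cre driver and the age of the mice were not given in the sources used here. Nothing there says whether the replicates of a group came from separate animals or pools, so each p-value rests on the spread between 2 libraries a group, and that spread may be technical.

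Ribosomal proteins bind ribosomal RNA to build the 40S subunit, which reads the mRNA, and the 60S subunit, which joins amino acids. A cell makes them in matched amounts, and their mRNAs are among the most abundant in dividing epithelium. Most of these mRNAs start with a run of pyrimidines, the TOP element, through which the kinase mTORC1 and the RNA-binding protein LARP1 set their translation and stability. Free ribosomal proteins such as RPL5 and RPL11 also hold back MDM2, the inhibitor of p53. The genome carries many processed copies of these genes, so a read may match both a gene and its copies.

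The start sites were read from RefSeq (GRCm38.p6), which held 64 of the 89 genes. The windows shown run from 10 bases before the start to 20 after it, and capitals mark the longest pyrimidine run of at least 5 bases. The first 5 belong to genes that stood above the rest of the family after DSS, the next 2 to genes that stood below it, and the last 3 to genes with a paralog or to the paralog itself.
Rps2, chr17:24720053-24720082, plus strand: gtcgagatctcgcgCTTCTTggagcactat
Rpsa, chr9:120127756-120127785, plus strand: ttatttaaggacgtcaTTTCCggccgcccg
Rps12, chr10:23787190-23787219, minus strand: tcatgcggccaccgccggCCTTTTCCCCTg
Rpl27, chr11:101442235-101442264, plus strand: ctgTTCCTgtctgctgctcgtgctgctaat
Rpl10, chrX:74270806-74270835, plus strand: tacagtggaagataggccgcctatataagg
Rps18, chr17:33955646-33955675, minus strand: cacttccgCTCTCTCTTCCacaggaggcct
Rpl9, chr5:65391412-65391441, minus strand: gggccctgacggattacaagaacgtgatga
Rps27, chr3:90213629-90213658, minus strand: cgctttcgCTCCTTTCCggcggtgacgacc
Rps27l, chr9:66946076-66946105, plus strand: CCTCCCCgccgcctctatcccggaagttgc
Rpl22l1, chr3:28805498-28805527, plus strand: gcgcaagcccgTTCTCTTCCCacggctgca
Rps18 and Rps27 had a TOP-type start, a C followed by 4 or more C or T, at the annotated first base, whereas the other 8 printed starts did not.

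A TOP-type start was found in 14 of the 64 genes (21.9%), against 3.01% of the 27025 genes in the same table. A pyrimidine run of at least 8 bases, from 20 bases before to 30 after the start, was in 54.7% of the 64 genes and 21.5% of all genes. Both were read on the gene's own strand, and the second was chosen after the data were seen. On either strand of the 250 bases before to 50 after the start, CCGGAAG was in 40.6% of the 64 genes and 9.93% of all genes. GGGCGG was in 60.9% and 38.2%, AAGATGGC in 9.38% and 3.19%, and TATAAA in 12.5% and 15.7%. The end of a CCGGAAG can form the first bases of an AAGATGGC, and each was counted by itself. These matches describe letters near annotated starts, which may differ from the starts used in these cells.

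Library totals ran from 15971642 to 20418466 expected counts. Rora had 8 and 5 counts in KO DSS, 16 and 14 in WT DSS, 4 and 3 in KO untreated and 12 and 6 in WT untreated, so its counts were lower in both KO libraries of each treatment. By edgeR the log2 fold change was -1.24 ± 0.45 (SE, adjusted p = 0.0425) with DSS and -1.10 ± 0.58 (log2, SE, adjusted p = 0.238) untreated. Which exons were removed was not given in the sources used here, so counts over the whole gene are a limited check. Each of the 8 epithelial marker genes had counts in all 8 libraries, with a summed level between 14160 and 17047 counts-per-million (CPM). Mitochondrially encoded genes took 5.29% and 4.91% of counts in KO DSS and 7.23% to 8.05% in the other 6 libraries.

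The 89 genes took 4.14% and 4.67% of all counts in KO DSS, 3.97% and 4.10% in WT DSS, 3.99% and 4.03% in KO untreated and 4.55% and 4.45% in WT untreated. The KO DSS libraries were the furthest apart of the 4 pairs, and both WT untreated libraries lay between them. In KO DSS, 84 of the 85 genes tested were higher in replicate 2 than in replicate 1, with a median log2 ratio of 0.18, while the median over all other genes was -0.0020. The corresponding medians for the ribosomal protein genes were 0.051 in WT DSS, 0.014 in KO untreated and -0.045 in WT untreated.

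The tables also give each gene's length and effective length, and for long genes their difference follows the mean length of the sequenced fragments. That difference was 181.94 and 177.62 bases in KO DSS, 183.10 and 182.51 in WT DSS, 183.92 and 183.40 in KO untreated and 179.60 and 178.47 in WT untreated. The 3 libraries with the smallest difference were the 3 with the largest ribosomal protein share. Fragment length moved with the groups in this way, and its part in the results was not tested beyond the fits that hold it as a covariate.

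**Figure D1:**
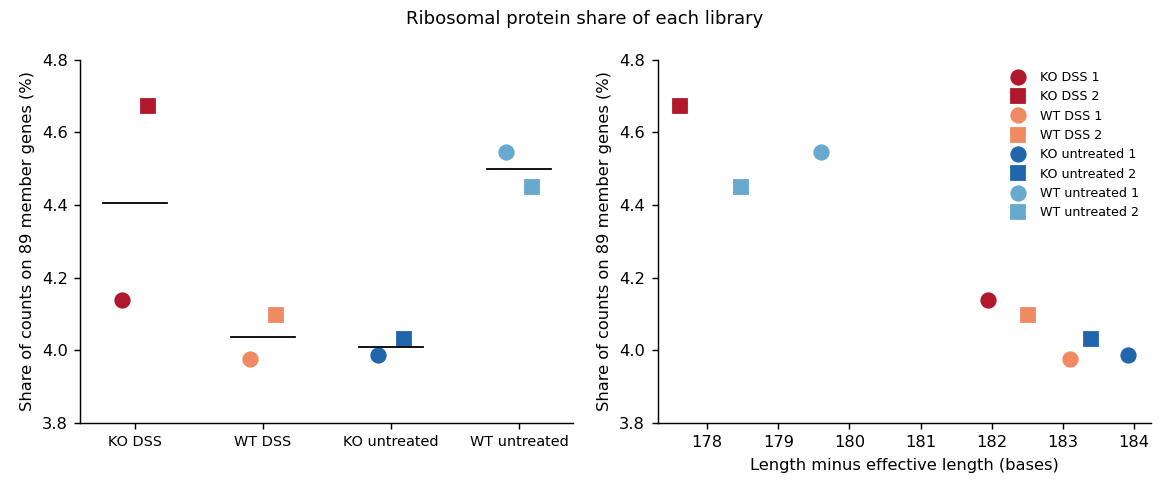
Left, the share of counts on the 89 genes in each library (points) with the group mean (line). Right, the same share against the difference between length and effective length in bases. KO DSS 2 and both WT untreated libraries sit at 4.45% to 4.67%, and the other 5 libraries at 3.97% to 4.14%.

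Levels between genes were compared as transcripts-per-million (TPM), which are per length. Averaged over the 8 libraries, the 80 protein-coding genes that passed the filter on low counts ranged from 31.8 to 4267 TPM, with a median of 1268. Leaving out the paralogs Rps27l, Rpl22l1 and Rpl7l1, the other 77 lay between 520 and 4267 TPM, an 8.20-fold range. Rplp1, a protein of the stalk that recruits elongation factors, had the highest level at 4267 TPM. It was followed by Rps27 at 3081, Rps12 at 2521, Rps29 at 2468 and Rpl13a at 2463 TPM. The mean effective lengths of Rps27 and Rps29 were only 165 and 210 bases, and TPM of such short genes depend strongly on that estimate. By CPM, which are not per length, Rps27 lay below the family median in all 8 libraries, at -0.31 to -0.15 (log2). Rpl35 was the lowest of the 77 at 520 TPM. In all, the family held 11.2% and 12.4% of TPM in KO DSS, 10.5% and 10.8% in WT DSS, 10.3% and 10.4% in KO untreated and 11.3% in both WT untreated libraries.

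The other 2 stalk genes lay below Rplp1. Rplp0, which anchors the stalk, averaged 2286 TPM and Rplp2, the partner of Rplp1, 1207 TPM. Rplp1 held 4437 and 4849 TPM in KO DSS, 4091 and 4204 TPM in WT DSS, 4102 and 4010 TPM in KO untreated and 4226 and 4212 TPM in WT untreated. Rplp2 held 1298 and 1415 TPM in KO DSS, 1132 and 1148 TPM in WT DSS, 1132 and 1121 TPM in KO untreated and 1224 and 1183 TPM in WT untreated. For both genes KO DSS 2 was the highest library.

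Across the family, 85 genes passed the filter and were tested among 14991 genes. In KO DSS against WT DSS, 24 of the 85 were higher and none lower, with a median log2 fold change of 0.10. Over all genes tested, 21.3% were higher and 17.7% lower, with a median of -0.0062. The 24 higher genes were thus near the background share, while no gene was lower. Without KO DSS replicate 2, 10 were higher and 7 lower, with a median of 0.0042, where 17.9% of all genes were higher and 14.3% lower. There were 65 higher without KO DSS replicate 1 (21.9% of all genes), 10 without WT DSS replicate 1 (15.0%) and 15 without WT DSS replicate 2 (16.1%). Fragment length as a covariate gave 6 higher and 6 lower, with a median of -0.026, where 15.6% of all genes were higher and 11.5% lower. The 3 largest differences belonged to Rps2, Rps27l and Rpl41.

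Rps2, a 40S protein near the entry to the mRNA channel, had 1134 and 1274 CPM in KO DSS, against 901 and 904 CPM in WT DSS. Both KO DSS libraries lay above both WT DSS libraries, and the log2 fold change was 0.42 ± 0.048 (SE, edgeR adjusted p = 8.78e-06). Without KO DSS replicate 2 it was 0.33 ± 0.03 (log2, SE, adjusted p = 1.40e-07), and with fragment length as a covariate 0.30 ± 0.037 (log2, SE, adjusted p = 1.02e-05). Rpl41, which encodes the smallest ribosomal protein, had 414 and 509 CPM in KO DSS, against 363 and 377 CPM in WT DSS. Its groups did not overlap either, with a log2 fold change of 0.32 ± 0.07 (SE, edgeR adjusted p = 0.00221). That difference was 0.16 ± 0.038 (log2, SE, adjusted p = 0.003) without KO DSS replicate 2 and 0.11 ± 0.043 (log2, SE, adjusted p = 0.0704) with fragment length as a covariate.

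In KO untreated against WT untreated, none of the 85 was higher and 50 were lower, with a median log2 fold change of -0.18. Over all genes tested, 9.19% were higher and 6.22% lower, and the median was 0.0070. By edgeR adjusted p, the large subunit had 32 lower of 49 tested and the small subunit 18 of 36. Leaving out either KO untreated library cut the 50 to 3 (replicate 1) or 6 (replicate 2), with 2.11% and 2.32% of all genes lower. Leaving out a WT untreated library cut it to 7 (replicate 1) or 18 (replicate 2), with 2.62% and 2.88% of all genes lower. Leaving out a WT DSS library, which shares in the estimate of spread, gave 31 lower (replicate 1) or 33 (replicate 2), each with 1 higher, while 4.94% and 5% of all genes were lower. The median stayed between -0.20 and -0.15 over all libraries left out in turn. Once fragment length entered as a covariate, no gene was lower and 1 was higher, with a median of -0.0028, where 3.92% of all genes were higher and 2.09% lower.

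The 3 largest falls were those of Rps4l, Rps28 and Rpl28. Rps28, a small 40S protein beside the mRNA exit, had 227 and 230 CPM in KO untreated, against 280 and 280 CPM in WT untreated, a log2 fold change of -0.29 ± 0.064 (SE, edgeR adjusted p = 0.00642). Rpl28, a 60S protein, had 364 and 388 CPM in KO untreated, against 446 and 464 CPM in WT untreated, a log2 fold change of -0.28 ± 0.065 (SE, edgeR adjusted p = 0.0108). In both genes the KO untreated libraries lay below the WT untreated ones. Neither passed the threshold without KO untreated replicate 1, where they were -0.29 for Rps28 and -0.23 for Rpl28 on the log2 scale (adjusted p = 0.0786 and 0.151). Rps28 also lost its call without KO untreated replicate 2 or WT untreated replicate 1, and Rpl28 without WT untreated replicate 2. The differences with that covariate were -0.032 (log2, adjusted p = 0.843) and 0.0018 (log2, adjusted p = 0.997).

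In WT DSS against WT untreated, 60 of the 85 were lower and none higher, with a median log2 fold change of -0.19. Over all genes tested, 18.3% were lower and 18.9% higher, with a median of -0.0069. There were 32 lower without WT DSS replicate 1 (11.5% of all genes) and 34 without WT untreated replicate 1 (11.9%). Adding fragment length as a covariate left 14 lower and none higher, with a median of -0.058, where 8.97% of all genes were lower and 10.4% higher. Rpl36, Rps14 and Rps4l fell most.

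Rps14, a 40S protein whose loss of one copy marks the 5q- syndrome in humans, had 463 and 478 CPM in WT DSS, against 649 and 646 CPM in WT untreated. The 2 groups were far apart, at a log2 fold change of -0.46 ± 0.05 (SE, edgeR adjusted p = 8.16e-06). Rpl36, a 60S protein, had 177 and 188 CPM in WT DSS, against 262 and 260 CPM in WT untreated. Its libraries did not overlap either, and the log2 fold change was -0.52 ± 0.081 (SE, edgeR adjusted p = 1.96e-04). Both remained lower with the covariate, at -0.32 (log2, adjusted p = 1.47e-04) for Rps14 and -0.23 (log2, adjusted p = 0.0176) for Rpl36.

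In KO DSS against KO untreated the family went both ways, with 21 of the 85 higher and 4 lower and a median log2 fold change of 0.068. Over all genes tested, 21.7% were higher and 19.8% lower, with a median of 0.00091. Without KO DSS replicate 2, 12 were higher and 22 lower, with a median of -0.035, where 19.8% of all genes were higher and 17.8% lower. Without replicate 1 instead, 57 were higher and 1 lower (21.2% and 19.2% of all genes). There were 11 higher and 1 lower without KO untreated replicate 1 (15.9% and 14.3% of all genes), and 9 higher and 1 lower without KO untreated replicate 2 (15.5% and 14.1%). The covariate gave 6 higher and 24 lower, with a median of -0.078, where 16.2% of all genes were higher and 13.4% lower. Rps2, Rps12 and Rpsa rose most and Rps14, Rpl9 and Rps18 fell most.

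**Figure D2:**
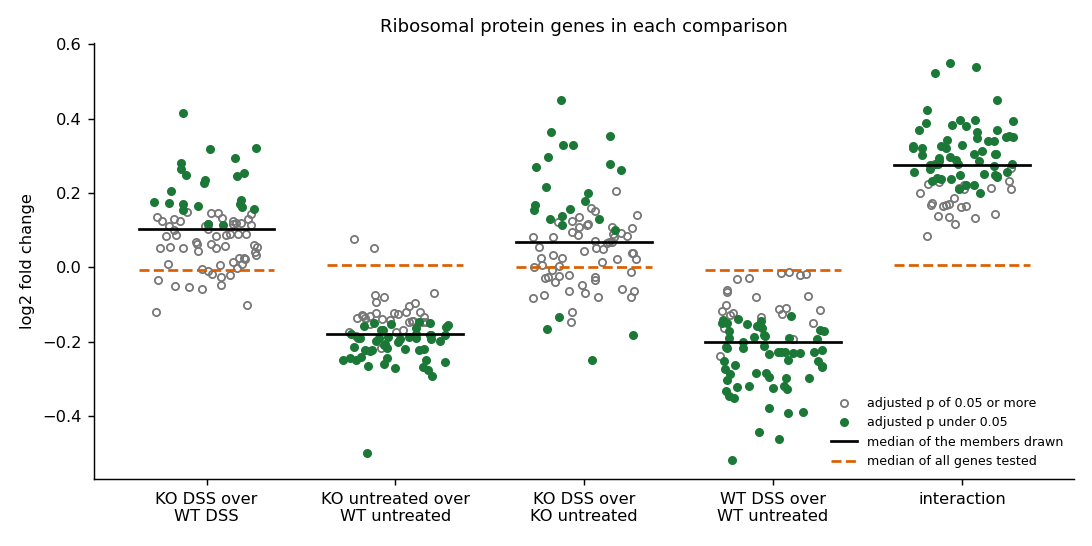
The log2 fold change of each ribosomal protein gene tested and averaging 5 CPM or more (83 genes, points, spread sideways at random) in the 4 comparisons and the interaction, filled where edgeR adjusted p was under 0.05. The black line is the median of the genes drawn and the dashed line that of all genes tested, which lies near 0 in each comparison.

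The DSS response differed between genotypes in 59 of the 85 genes, each with the larger value in KO, with a median interaction of 0.28 on the log2 scale. The interaction takes the WT change after DSS away from the KO change, and over all genes tested 10.8% had a positive and 10.6% a negative call. Without KO DSS replicate 2, 50 had a positive and none a negative call (9.35% and 9.03% of all genes), with a median of 0.18. Positive calls numbered 21 without WT DSS replicate 1 (6.12% of all genes), 22 without KO untreated replicate 1 (6.08%), 29 without KO untreated replicate 2 (6.43%) and 23 without WT untreated replicate 1 (6.25%). Under the fragment length covariate there was no call in either direction and the median was -0.034, where 2.05% of all genes had a positive and 1.89% a negative call. The largest values were those of Rps2 at 0.55 ± 0.067 (log2, SE, edgeR adjusted p = 6.15e-05), Rpl41 at 0.54 ± 0.10 (log2, SE, edgeR adjusted p = 0.00153) and Rps16 at 0.52 ± 0.078 (log2, SE, edgeR adjusted p = 3.28e-04). Rps16, a 40S protein whose tail reaches the tRNA in the P site, had 456 and 528 CPM in KO DSS, 415 and 411 CPM in WT DSS, 402 and 399 CPM in KO untreated and 483 and 484 CPM in WT untreated. KO DSS 2 and both WT untreated libraries were its highest.

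Gene length moved with these medians in other genes too. Among genes with an effective length under 500 bases, the median log2 fold change of KO DSS over WT DSS was 0.11 for 44 ribosomal protein genes and 0.11 for 683 other genes. For WT DSS over WT untreated the medians were -0.20 and -0.21. For KO untreated over WT untreated they were -0.17 and -0.10. For KO DSS over KO untreated they were 0.081 and 0.032. At 500 to 1000 bases, 34 ribosomal protein genes had a median of -0.18 and 1696 other genes one of -0.044 in KO untreated over WT untreated. In WT DSS over WT untreated these medians were -0.22 and -0.11. Between the KO DSS replicates the median log2 ratio of replicate 2 over replicate 1 was 0.19 for the ribosomal protein genes under 500 bases, 0.14 for other genes of that length and -0.12 for genes of 4000 bases or more.

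**Figure D3:**
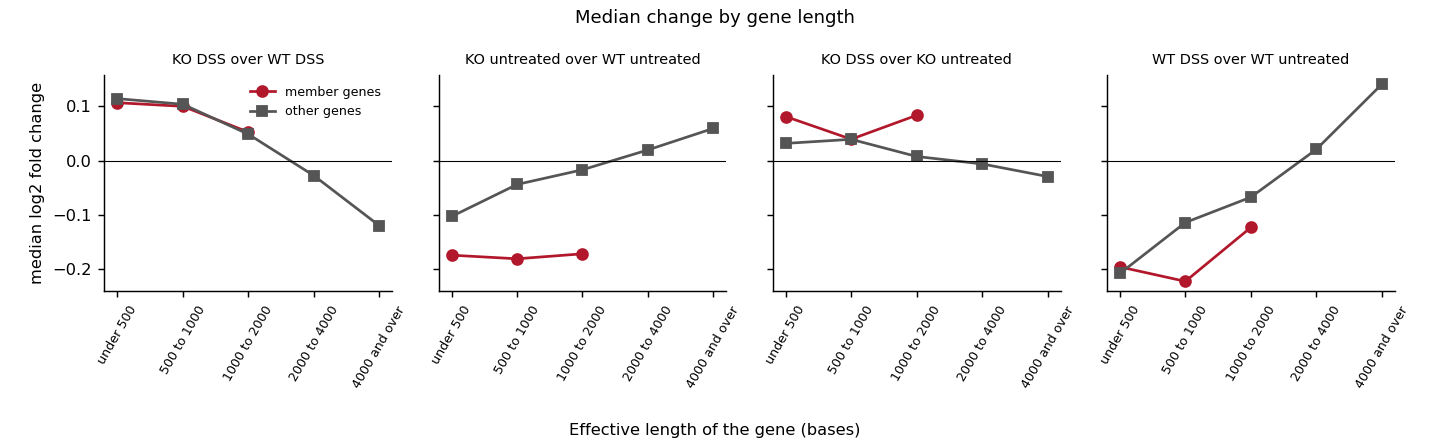
Median log2 fold change in bins of effective length for the ribosomal protein genes and for all other genes tested, in each comparison of 2 groups. Bins with fewer than 5 genes are not drawn. In KO DSS over WT DSS both lines lie together, whereas in KO untreated over WT untreated the ribosomal protein genes lie below other genes of their length.

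Which members moved against the rest of the family was read by scaling each library to the summed counts of the 89 genes, an alternative added after the data were seen. On that scale, 6 of the 85 were higher and 2 lower in KO DSS over WT DSS. Over all genes, 11.3% were higher and 19.2% lower. In KO untreated over WT untreated, 1 was higher and 1 lower, with 20.6% and 0.941% of all genes. In KO DSS over KO untreated, 9 were higher and 10 lower, with 12.4% and 19.8% of all genes. In WT DSS over WT untreated, 6 were higher and 7 lower, with 32.0% and 5.41% of all genes. In the interaction 3 were higher and none lower, with 2.27% and 23.6% of all genes.

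The DSS comparisons of KO and WT mice share no library, and some genes departed from the family in both. Rpl10, Rpl27, Rps12 and Rpsa were higher than the family in both, which is 44.4% of the 9 genes in KO and 66.7% of the 6 in WT. Rpl17, Rpl36, Rpl9, Rps14 and Rps18 were lower in both, which is 50% of the 10 in KO and 71.4% of the 7 in WT. The share of all genes called alike in both comparisons is not given here, so this overlap cannot be called particular to the family. Across the 83 genes that averaged 5 CPM or more, the changes relative to the family had a Pearson correlation of 0.71 and a Spearman correlation of 0.70 between KO and WT mice. This is a description across genes that share the length and sequence of their transcripts in both comparisons and one fitted model. For KO over WT, the same correlation between DSS-treated and untreated mice was 0.46 (Spearman 0.37).

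**Figure D4:**
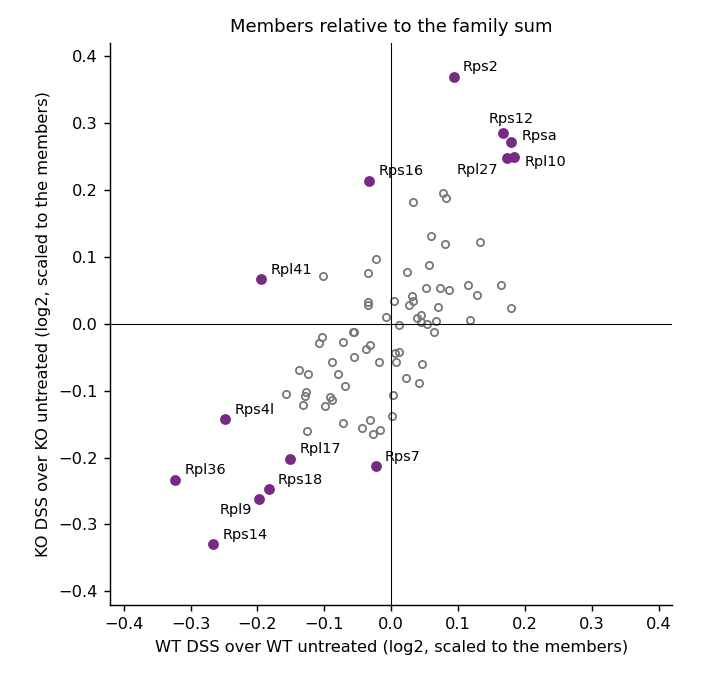
Each point is 1 of 83 ribosomal protein genes, with its log2 change after DSS relative to the summed family in KO mice (vertical) and in WT mice (horizontal). The genes named on the plot are filled. Rpl10, Rpl27, Rps12 and Rpsa lie at the upper right and Rpl36, Rps14, Rpl9, Rps18 and Rpl17 at the lower left, while Rps2 is at 0.37 in KO and 0.094 in WT.

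Among genes that averaged 5 CPM or more, Rps2 stood highest above the family after DSS in KO mice. It had 1134 and 1274 CPM in KO DSS, against 881 and 882 CPM in KO untreated, whereas WT mice had 901 and 904 CPM in WT DSS, against 962 and 973 CPM in WT untreated. The KO DSS libraries were above all 6 others. Relative to the family its change after DSS was 0.37 ± 0.049 (log2, SE, adjusted p = 8.45e-05) in KO and 0.094 ± 0.049 (log2, SE, adjusted p = 0.152) in WT, and its interaction was 0.28 ± 0.07 (log2, SE, adjusted p = 0.0142). Of the 3 genes with an interaction call on this scale it had the largest value. With fragment length as a covariate, in TMM scaling, the interaction was 0.27 (log2, adjusted p = 0.0551), on the other side of the threshold.

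Rpsa encodes the 40S protein also known as the laminin receptor. It had 1246 and 1433 CPM in KO DSS, against 1045 and 1052 CPM in KO untreated, and WT mice had 1067 and 1117 CPM in WT DSS, against 1121 and 1087 CPM in WT untreated. The KO DSS libraries were again the highest, and the WT groups overlapped. In TMM scaling Rpsa rose by 0.35 ± 0.054 (log2, SE, edgeR adjusted p = 1.06e-04) after DSS in KO mice, and its change was -0.016 ± 0.054 (log2, SE, edgeR adjusted p = 0.849) in WT mice. Relative to the family both comparisons passed the threshold, at 0.27 ± 0.047 (log2, SE, adjusted p = 6.73e-04) in KO and 0.18 ± 0.047 (log2, SE, adjusted p = 0.0104) in WT.

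Rps12, a 40S protein that in Drosophila takes part in cell competition, had 832 and 932 CPM in KO DSS, against 688 and 682 CPM in KO untreated. WT mice had 744 and 742 CPM in WT DSS, against 769 and 745 CPM in WT untreated. It rose only in KO by the TMM test, at 0.37 ± 0.048 (log2, SE, edgeR adjusted p = 2.88e-05) against -0.027 ± 0.048 (log2, SE, edgeR adjusted p = 0.697) in WT, and the interaction was 0.39 ± 0.068 (log2, SE, edgeR adjusted p = 0.00115). Relative to the family it was higher in both, at 0.28 in KO and 0.17 in WT on the log2 scale, and the interaction was 0.12 ± 0.071 (log2, SE, adjusted p = 0.234).

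Rpl27, a 60S protein, had 222 and 253 CPM in KO DSS, against 191 and 187 CPM in KO untreated, and WT mice had 195 and 196 CPM in WT DSS, against 202 and 194 CPM in WT untreated. Rpl10, which takes part in the last steps of 60S maturation, had 904 and 981 CPM in KO DSS, against 741 and 760 CPM in KO untreated, and WT mice had 868 and 870 CPM in WT DSS, against 891 and 860 CPM in WT untreated. For both genes the KO DSS libraries lay above the KO untreated ones, while in WT mice the DSS and untreated libraries overlapped for Rpl27 and for Rpl10. After DSS in KO mice Rpl27 rose by 0.33 ± 0.055 (log2, SE, edgeR adjusted p = 2.40e-04) and Rpl10 by 0.33 ± 0.044 (log2, SE, edgeR adjusted p = 2.94e-05). The values with fragment length as a covariate were 0.18 (log2, adjusted p = 0.033) for Rpl27 and 0.24 (log2, adjusted p = 0.00121) for Rpl10.

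Rps14 fell after DSS in both genotypes. KO mice had 472 and 531 CPM in KO DSS, against 585 and 606 CPM in KO untreated, a log2 fold change of -0.25 ± 0.05 (SE, edgeR adjusted p = 0.00112), and the WT values are given above. Rps18, a 40S protein near the subunit interface, had 540 and 625 CPM in KO DSS, against 654 and 653 CPM in KO untreated, and WT mice had 553 and 542 CPM in WT DSS, against 723 and 700 CPM in WT untreated. Its DSS change was -0.17 ± 0.055 (log2, SE, edgeR adjusted p = 0.0263) in KO and -0.38 ± 0.055 (log2, SE, edgeR adjusted p = 1.07e-04) in WT. Rpl9, a 60S protein, had 557 and 641 CPM in KO DSS, against 671 and 688 CPM in KO untreated, and WT mice had 595 and 612 CPM in WT DSS, against 802 and 782 CPM in WT untreated. Its DSS change was -0.18 ± 0.054 (log2, SE, edgeR adjusted p = 0.015) in KO and -0.39 ± 0.054 (log2, SE, edgeR adjusted p = 6.90e-05) in WT. In KO mice neither Rps18 nor Rpl9 passed the threshold without KO DSS replicate 1, at -0.063 and -0.082 on the log2 scale (adjusted p = 0.162 and 0.0695), or without either KO untreated library. For these 3 genes the DSS libraries were below the untreated libraries of the same genotype. Relative to the family, the interaction passed the threshold for none of them, at -0.063, -0.064 and -0.065 on the log2 scale.

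**Figure D5:**
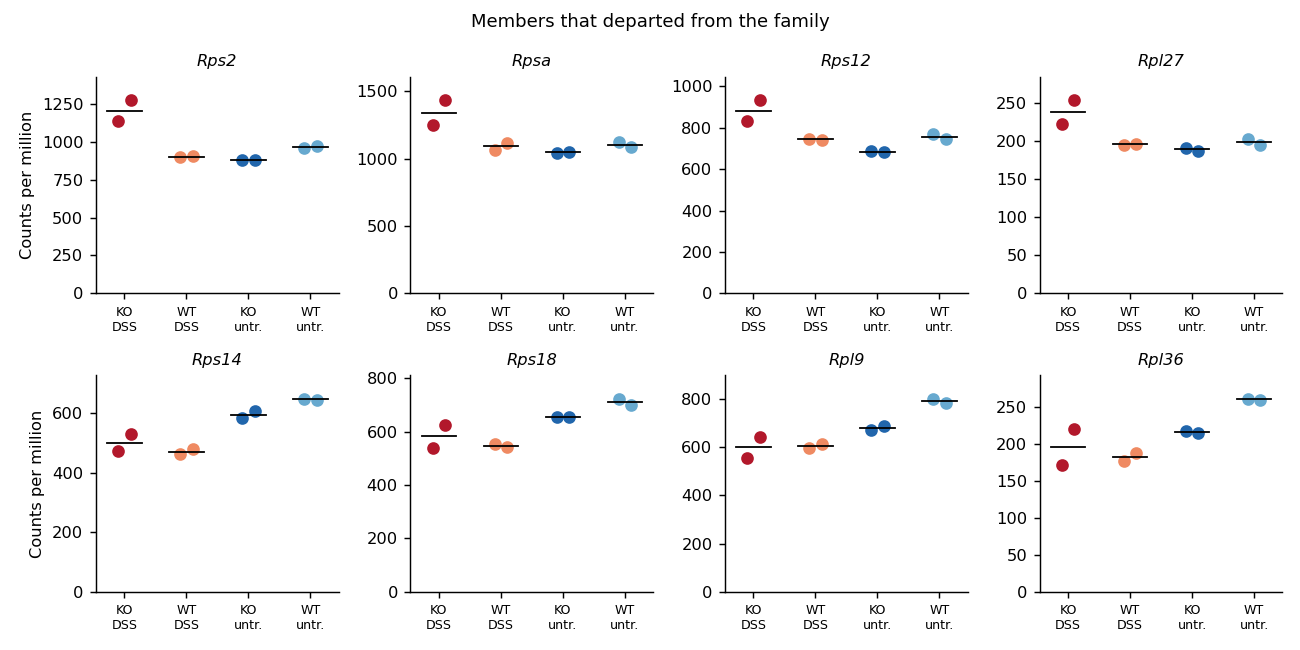
TMM-scaled CPM of 8 genes in each library (points) with the group mean (line), with an axis from 0. Rps2, Rpsa, Rps12 and Rpl27 are highest in the KO DSS libraries, and Rps14, Rps18, Rpl9 and Rpl36 are highest in the WT untreated libraries.

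Under each of the 19 alternative settings, 4 genes remained higher in KO DSS than in WT DSS, namely Rps2, Rpsa, Rps12 and Rpl27. After DSS in KO mice Rps2, Rpsa, Rps12, Rpl27 and Rpl10 remained higher and Rps14 lower. After DSS in WT mice Rpl17, Rpl36, Rpl9, Rps14, Rps18 and Rps4l remained lower. Of the 50 genes lower in KO untreated than in WT untreated, none remained under all 19 settings, and of the 59 with an interaction call none remained under all 18 that could give one.

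Among genes with a paralog, Rps27 far exceeded Rps27l, which p53 induces in human and mouse cells. Rps27 averaged 3081 TPM and Rps27l 279 TPM, at mean effective lengths of 165 and 319 bases. By CPM against the family median, Rps27 lay at -0.31 to -0.15 and Rps27l at -2.96 to -2.53 (log2) over the libraries. Rps27l had 68.1 and 84.5 CPM in KO DSS, against 58.8 and 63.4 CPM in WT DSS, a log2 fold change of 0.32 ± 0.083 (SE, edgeR adjusted p = 0.00688), while that of Rps27 was -0.026 ± 0.068 (log2, SE, edgeR adjusted p = 0.795). For Rps27l both KO DSS libraries were above both WT DSS ones, and the difference was 0.16 (log2, adjusted p = 0.0742) without KO DSS replicate 2 and 0.27 (log2, adjusted p = 0.0831) without WT DSS replicate 1. Over the 19 alternative settings that Rps27l difference ran from 0.11 to 0.47 (log2), and 4 of them lost its call. In KO untreated over WT untreated Rps27 was lower, at -0.25 ± 0.068 (log2, SE, edgeR adjusted p = 0.0216), a call lost without WT untreated replicate 1 or either KO untreated library, and the change of Rps27l was 0.052 ± 0.083 (log2, SE, edgeR adjusted p = 0.733).

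Rpl22 binds its paralog's transcript and holds it down in mice. Rpl22 averaged 853 TPM and Rpl22l1 279 TPM. Rpl22l1 had 79.7 and 93.7 CPM in KO DSS, 67.7 and 78.2 CPM in WT DSS, 75.5 and 67.6 CPM in KO untreated and 82.0 and 76.1 CPM in WT untreated. The KO DSS libraries lay above both WT DSS and both KO untreated libraries and overlapped WT untreated. Rpl22l1 rose in KO DSS over WT DSS by 0.25 ± 0.083 (log2, SE, edgeR adjusted p = 0.0273), where the change of Rpl22 was -0.0026 ± 0.055 (log2, SE, edgeR adjusted p = 0.976). Over the 19 alternative settings the Rpl22l1 value ran from 0.11 to 0.36 (log2), and 6 of them lost its call. The Rpl22l1 value was 0.13 (log2, adjusted p = 0.225) without KO DSS replicate 2 and 0.15 (log2, adjusted p = 0.283) without WT DSS replicate 1.

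Rpl7l1, a paralog of Rpl7, averaged 31.8 TPM against 1417 TPM for Rpl7. It had 61.4 and 66.7 CPM in KO DSS, against 52.4 and 54.3 CPM in WT DSS, and the log2 fold change was 0.26 ± 0.055 (SE, edgeR adjusted p = 0.00161). The change of Rpl7 was 0.026 ± 0.048 (log2, SE, edgeR adjusted p = 0.702) in the same comparison. Relative to the family, Rpl7l1 was the only member higher in KO untreated over WT untreated, at 0.25 ± 0.071 (log2, SE, adjusted p = 0.0268). In TMM scaling its change there was 0.076 (log2), no member was called higher and the median of the members was -0.18. On the family scale, the Rpl7l1 difference in KO DSS over WT DSS was 0.16 ± 0.071 (log2, SE) and did not pass the threshold. Rpl7l1 was also the only member tested with an effective length above 2000 bases.

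The paralogs known from testis (Rpl10l and Rpl39l) had no count in any library. A count of 0 allows up to 3 counts, or 0.147 to 0.188 CPM per library. Rpl3l, the striated muscle paralog of Rpl3, had counts only in the KO untreated libraries, at 0.127 and 0.0612 CPM, which is below that limit. Their partners were abundant, with averages of 2058 TPM for Rpl10, 1088 TPM for Rpl39 and 1162 TPM for Rpl3. Rpl3 was lower in KO untreated than in WT untreated, at -0.19 ± 0.041 (log2, SE, edgeR adjusted p = 0.00539), a call lost without WT untreated replicate 2 or KO untreated replicate 1, and its change in KO DSS over WT DSS was 0.054 ± 0.041 (log2, SE, edgeR adjusted p = 0.317). For Rpl39 these changes were -0.14 ± 0.064 (log2, SE, edgeR adjusted p = 0.162) and 0.14 ± 0.064 (log2, SE, edgeR adjusted p = 0.0916).

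Rps4l, annotated as a pseudogene, averaged 35.8 TPM against 1468 TPM for Rps4x. It shared 14.9% of its 50-base stretches with another gene, against 72.2% for Rps4x. It had 17.4 and 18.4 CPM in KO DSS, 18.99 and 19.96 CPM in WT DSS, 18.6 and 18.9 CPM in KO untreated and 26.9 and 26.1 CPM in WT untreated. WT untreated was above each of the other groups. Its log2 fold change was -0.50 ± 0.072 (SE, edgeR adjusted p = 3.13e-04) in KO untreated over WT untreated and -0.44 ± 0.071 (log2, SE, edgeR adjusted p = 2.55e-04) in WT DSS over WT untreated. With fragment length as a covariate these were -0.43 (log2, adjusted p = 0.0661) and -0.38 (log2, adjusted p = 0.0241).

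Rps12l1, an annotated pseudogene, shared 100% of its 50-base stretches with other genes. It had 6.71 and 4.62 CPM in KO DSS, 0 and 1.17 CPM in WT DSS, 2.14 and 1.29 CPM in KO untreated and 0.567 and 0.628 CPM in WT untreated, and the file's expected counts for it are shares of reads that fit elsewhere too. Its KO DSS libraries were the highest, and KO DSS over WT DSS was 3.24 ± 0.52 (log2, SE, edgeR adjusted p = 1.98e-04), which cannot be read apart from the genes that share its sequence. Rps3a3 was the lowest gene tested, at 3.48 TPM, and Rps3a2 (52.4 TPM) and Rpl6l (20.3 TPM) were also low. No call was made for these 3 in any comparison. Rpl32l averaged 1.65 TPM and did not pass the filter.

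Reads shared with pseudogenes bear on the whole family. Expected counts were fractional in 70 to 74 of the 89 genes per library, at a tolerance of 0.005, and the 288 rows named as pseudogenes held 0.0476% to 0.0581% of counts. Rps2 shared 71.3% of its 50-base stretches with another gene, Rps12 83.6%, Rpl10 85.4%, Rpl27 53% and Rpsa 44.0%. Among genes below the family after DSS in both genotypes, Rps18 shared 86.7%, Rpl36 81.1%, Rpl17 44.7%, Rps14 28.4% and Rpl9 16.7%. These percentages refer to the longest annotated transcript, protein-coding where there is one, which can be much longer than what was quantified. For Rpl9 it has 2690 bases, against a mean effective length of 575.5, and for Rps15a 5179 against 374. A low percentage therefore need not mean that few reads are shared, and groups formed by it are a limited check. The 15 genes tested with under 20% shared had medians of 0.13 in KO DSS over WT DSS and -0.19 in WT DSS over WT untreated. The 27 with 70% or more had 0.084 and -0.19. Adding the named pseudogene rows to each gene gave 0.42 (log2, adjusted p = 8.13e-06) for Rps2 and 0.30 (log2, adjusted p = 5.60e-04) for Rpsa in KO DSS over WT DSS.

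Rps6, whose protein is the classic target of S6 kinase, had 774 and 851 CPM in KO DSS and 736 and 761 CPM in WT DSS. It had 808 and 812 CPM in KO untreated and 912 and 897 CPM in WT untreated. Both WT untreated libraries were above the other 6, and the KO DSS and KO untreated libraries overlapped. Its change after DSS was 0.0042 ± 0.045 (log2, SE, edgeR adjusted p = 0.953) in KO, and it fell in WT, at -0.27 ± 0.045 (log2, SE, edgeR adjusted p = 3.17e-04). The change of Rpl5 was -0.058 ± 0.049 (log2, SE, edgeR adjusted p = 0.373) in KO and -0.19 ± 0.049 (log2, SE, edgeR adjusted p = 0.00676) in WT. That of Rpl11 was 0.034 ± 0.063 (log2, SE, edgeR adjusted p = 0.702) in KO and -0.25 ± 0.063 (log2, SE, edgeR adjusted p = 0.00617) in WT. In WT, Rpl5 and Rpl11 lost their calls without WT DSS replicate 1 or WT untreated replicate 1. Rplp0 rose by 0.20 ± 0.048 (log2, SE, edgeR adjusted p = 0.00401) after DSS in KO, and its change was -0.11 ± 0.048 (log2, SE, edgeR adjusted p = 0.0797) in WT. The Rplp0 change in KO was 0.11 (log2, adjusted p = 0.00746) without KO DSS replicate 2 and 0.048 (log2, adjusted p = 0.425) with fragment length as a covariate.

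Outside the symbol rule, Fau and Rack1 were lower in KO untreated over WT untreated and in WT DSS over WT untreated. Fau, which encodes the ubiquitin-like precursor of RPS30, changed by -0.22 ± 0.058 (log2, SE, adjusted p = 0.0219) in KO untreated over WT untreated and -0.34 ± 0.058 (log2, SE, adjusted p = 4.33e-04) in WT DSS over WT untreated. Rack1, a 40S scaffold protein, changed by -0.14 ± 0.045 (log2, SE, adjusted p = 0.0431) and -0.23 ± 0.045 (log2, SE, adjusted p = 0.00125) in the same comparisons. Rpl36al, a paralog of Rpl36a, was higher in KO DSS over WT DSS, at 0.26 ± 0.06 (log2, SE, adjusted p = 0.0031), and it also rose after DSS in KO, at 0.32 ± 0.06 (log2, SE, adjusted p = 6.40e-04).

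Mitochondrial ribosomal proteins build a separate ribosome for transcripts of the mitochondrial genome. Of their 79 genes, 2 were lower and none higher in KO untreated over WT untreated, where 6.22% of all genes were lower. The median was 0.00072. In KO DSS over WT DSS, 39 were higher and none lower, with a median of 0.26, where 21.3% of all genes were higher. After DSS in KO 18 were higher and none lower, a number near the 21.7% of all genes that were higher there. After DSS in WT 22 were lower and none higher, where 18.3% of all genes were lower.

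Most genes of ribosome assembly rose in KO DSS over WT DSS. In KO DSS over WT DSS, 27 of 32 were higher and 1 lower, with a median of 0.35, and in KO untreated over WT untreated 8 were higher and 1 lower, with a median of 0.16. Among all genes, 21.3% were higher and 17.7% lower in the first comparison, and 9.19% and 6.22% in the second. For this list and those that follow, no values with fragment length as a covariate are given. Nop56, a core protein of the snoRNPs that methylate ribosomal RNA, rose by 0.53 ± 0.051 (log2, SE, adjusted p = 1.63e-06) with DSS and by 0.34 ± 0.048 (log2, SE, adjusted p = 2.74e-04) untreated. After DSS, 3 were higher and 9 lower in KO, against 1 higher and 21 lower in WT. The shares of all genes were then 21.7% higher and 19.8% lower in KO, and 18.9% and 18.3% in WT. Npm1, a nucleolar chaperone, rose by 0.38 ± 0.04 (log2, SE, adjusted p = 2.57e-06) after DSS in KO mice. Of the 5 chaperones that carry single ribosomal proteins, 3 fell in KO and 5 in WT after DSS. Grwd1, whose yeast counterpart escorts Rpl3, rose in KO DSS over WT DSS by 0.75 ± 0.13 (log2, SE, adjusted p = 4.17e-04).

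A list of translation factors and other genes whose mRNAs have TOP starts had 10 of 18 lower and 1 higher in KO untreated over WT untreated, where 6.22% of all genes were lower. Eif4b, a helicase cofactor, was at -0.29 ± 0.038 (log2, SE, adjusted p = 1.30e-04) and Eef2, the translocase, at -0.21 ± 0.035 (log2, SE, adjusted p = 0.00102). In KO DSS over WT DSS 4 were higher and 2 lower, with 21.3% and 17.7% of all genes. Among them were Nap1l1, a histone chaperone, at 0.51 ± 0.048 (log2, SE, adjusted p = 1.13e-06) and Eef1g, an elongation factor subunit, at 0.31 ± 0.039 (log2, SE, adjusted p = 2.84e-05). After DSS, 7 were higher and 1 lower in KO, and 5 lower and none higher in WT. The shares of all genes were then 21.7% higher and 19.8% lower in KO, and 18.9% and 18.3% in WT.

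Of the regulators of ribosome production, RNA polymerase I genes had 3 of 14 higher and none lower in KO DSS over WT DSS, near the 21.3% of all genes that were higher. After DSS, 2 were higher and 5 lower in KO, and 5 were lower and none higher in WT, with Ubtf at -0.32 ± 0.048 (log2, SE, adjusted p = 9.39e-05) in KO and -0.27 ± 0.048 (log2, SE, adjusted p = 6.08e-04) in WT. The shares of all genes after DSS were 21.7% higher and 19.8% lower in KO, and 18.9% and 18.3% in WT. Of 18 genes of the mTORC1 pathway, 2 were higher and 7 lower in KO DSS over WT DSS, with a median of -0.077. Among all genes, 21.3% were higher and 17.7% lower in that comparison. The 2 higher mTORC1 genes were Eif4e, the cap-binding protein, at 0.48 ± 0.056 (log2, SE, adjusted p = 1.06e-05) and its inhibitor Eif4ebp1 at 0.82 ± 0.11 (log2, SE, adjusted p = 2.92e-05). In the MYC network, 2 of 9 were higher and 1 lower in that comparison. In each genotype 2 of the 9 were higher and 4 lower after DSS. Myc itself fell after DSS in both genotypes, at -0.58 ± 0.069 (log2, SE, adjusted p = 9.07e-06) in KO and -0.93 ± 0.068 (log2, SE, adjusted p = 1.25e-07) in WT. Among 12 genes of the p53 pathway, 3 were higher and 3 lower in KO DSS over WT DSS, against 21.3% and 17.7% of all genes. With DSS, 2 of the 12 were higher and 3 lower in KO, and 1 higher and 2 lower in WT. Cdkn1a, a p53 target, fell after DSS, at -0.50 ± 0.041 (log2, SE, adjusted p = 2.08e-07) in KO and -0.51 ± 0.041 (log2, SE, adjusted p = 3.36e-07) in WT. Of 9 rescue and dormancy genes, 1 was higher and 1 lower in KO DSS over WT DSS, against 21.3% and 17.7% of all genes.

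Other genes moved with the same groups. Of 15 proliferation genes, 15 were higher in KO DSS than in WT DSS, with summed levels of 1280 and 1223 CPM in KO DSS and 564 and 553 CPM in WT DSS. In KO untreated they summed to 921 and 929 CPM, against 640 and 629 CPM in WT untreated, and 15 were again higher. In that comparison 50 of the 85 ribosomal protein genes were lower. After DSS, 9 proliferation genes were higher and 2 lower in KO, against 3 higher and 8 lower in WT. Among all genes, 21.3% were higher and 17.7% lower in KO DSS over WT DSS. The shares were 9.19% and 6.22% in KO untreated over WT untreated. They were 21.7% and 19.8% after DSS in KO, and 18.9% and 18.3% in WT. All 8 neutrophil markers were higher in KO DSS than in WT DSS, as were 6 of 8 macrophage markers, whose sum was 158 and 167 CPM in KO DSS and 72.0 CPM in both WT DSS libraries. The neutrophil sum was 305 and 332 CPM in KO DSS, 52.0 and 55.8 CPM in WT DSS, 85.9 and 86.0 CPM in KO untreated and 99.3 and 97.3 CPM in WT untreated. In untreated libraries nearly all of it was Ly6g, which had 103 and 112 CPM in KO DSS, 42.2 and 44.7 CPM in WT DSS, 85.7 and 85.8 CPM in KO untreated and 99.2 and 97.2 CPM in WT untreated. Without Ly6g the sum was 202 and 219 CPM in KO DSS, 9.79 and 11.1 CPM in WT DSS, 0.254 and 0.184 CPM in KO untreated and 0.0501 and 0.112 CPM in WT untreated, and 7 of the 8 markers rose after DSS in WT. None of the markers of either list was at 0 in all libraries, and 1 of the 8 neutrophil markers had a count in every library. The 13 mitochondrially encoded genes were all lower in KO DSS than in WT DSS, with a median log2 fold change of -0.53, and 12 were lower in KO DSS than in KO untreated, with a median of -0.52. All 4 fibroblast markers tested were higher in KO DSS than in WT DSS, with a sum of 11.1 and 10.9 CPM in KO DSS against 5.05 and 5.24 CPM in WT DSS. That sum was 10.6 and 11.3 CPM in KO untreated, close to KO DSS, and 7.41 and 6.61 CPM in WT untreated. Of 5 erythrocyte markers 4 were lower, with a sum of 89.01 and 96.68 CPM in KO DSS against 160 and 162 CPM in WT DSS. The part of these cells and of the mitochondrial share in the ribosomal protein values was not tested, and in such bulk samples fewer cells of a type and less RNA per cell cannot be told apart.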

How the data were processed

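RNA of colon epithelial cells from 8 libraries was analysed from tables of 53379 genes. The deposited expected counts are RSEM estimates that divide ambiguous reads among genes, per the file headers. TPM, also deposited and per effective length by the file headers, were used to compare levels between genes. They were also listed per library for the family, Rplp1 and Rplp2, and entered no test. The deposited length and effective length columns, per the file headers, gave the difference used as a measure of fragment length. Tools in the submitters' processing notes are RSEM 1.3.0, STAR 2.5.3a and DESeq2 1.18.1, with build mm10. The annotation release and strand setting were not given in the sources used here.

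Expected counts were rounded. Genes were filtered with filterByExpr (14991 kept), scaled by TMM and fitted in edgeR 4.0.16 (R 4.3.3) by quasi-likelihood, with all 8 libraries and a mean per group, leaving 4 residual degrees of freedom. P-values were two-sided and adjusted by Benjamini-Hochberg over all genes tested, with a threshold of 0.05. The SE is |log2 fold change| over the root of the F statistic. CPM are TMM-scaled. Alternatives covered scaling, filter, effective-length offsets, a replicate block, DESeq2 1.42.0, summed pseudogene rows, compared groups only and each library left out. The last additions, made after the data were seen, were scaling to the summed counts of the family and fragment length as a covariate. The procedure was tested on simulated data.

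The members, the other gene lists and the marker lists were chosen with earlier results of these data known. The genes named are the 3 largest changes in each direction per comparison among genes that passed and averaged 5 CPM or more, paralog pairs, stalk genes, Rpsa, Rps6, Rpl5, Rpl11, the highest and lowest by TPM, and up to 2 genes of each other list by smallest p. Other genes, among them those that departed from the family, were chosen after their values were seen. Positions and 50-base stretches are from GENCODE M21, which held all 89 identifiers, and promoter windows are from RefSeq GRCm38.p6. The stretches were taken from the longest protein-coding transcript of each gene, or the longest of any kind where it had none. Promoter sequence on chromosome 18 is not shown here. Proteins were not analysed here. Limits of detection cover counting error only.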

Additional observations from a re-analysis of the deposited data

Results flagged for a closer look

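The DSS response differed between KO and WT mice in 59 ribosomal protein genes by the edgeR test of the interaction, each with a positive value. The named ones were, on the log2 scale, Rps2 at 0.55, Rpl41 at 0.54, Rps16 at 0.52, Rpl22l1 at 0.40, Rps12 at 0.39, Rps4l at 0.38 and Rpsa at 0.37. They also included Rplp2 at 0.34, Rpl10 at 0.34, Rplp0 at 0.31, Rpl39 at 0.29, Rpl11 at 0.28, Rps6 at 0.28, Rplp1 at 0.25, Rpl3 at 0.25 and Rps4x at 0.24. The calls of Rpl11, Rpl22l1, Rpl3, Rpl39, Rplp1, Rps4l, Rps4x and Rps6 were each lost without at least 1 library. Without KO DSS replicate 2, 50 had a call, and with fragment length as a covariate none did. Relative to the summed family, the interaction of Rps2 was 0.28 ± 0.07 (log2, SE, adjusted p = 0.0142), that of Rpl41 0.26 ± 0.088 (log2, SE, adjusted p = 0.045) and that of Rps16 0.25 ± 0.079 (log2, SE, adjusted p = 0.0373), and no other member passed the threshold on that scale. Fragment length moved with the groups, and its part in these values was not tested beyond the fit with it as a covariate.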

How the results depend on the processing

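Counts of ribosomal protein genes below are those past the edgeR threshold. Scaling to the family gave 1 higher and 1 lower (median -0.0043) in KO untreated over WT untreated, 6 higher and 2 lower (-0.0032) in KO DSS over WT DSS, 9 higher and 10 lower in KO DSS over KO untreated, 6 higher and 7 lower (0.0017) in WT DSS over WT untreated, and 3 positive interactions (0.0013). That scaling sets the family's sum equal in all libraries by construction, so these medians lie near 0. Fragment length as a covariate gave 1 higher and 0 lower (-0.0028), 6 higher and 6 lower (-0.026), 6 higher and 24 lower (-0.078), 14 lower (-0.058) and 0 positive interactions (-0.034) in the same order. The covariate takes 1 degree of freedom and varies within groups mostly through the KO DSS pair.

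Effective-length offsets gave 16 lower in KO untreated over WT untreated, 15 higher in KO DSS over WT DSS and 25 positive interactions. With no filter on low counts, 1 was higher in KO untreated over WT untreated and 39 were higher in KO DSS over WT DSS. Total counts only gave 40 higher and 1 lower in KO DSS over KO untreated. Fitting the compared groups only gave 1 higher and 78 lower in KO untreated over WT untreated, 12 higher in KO DSS over WT DSS, and 13 higher and 1 lower in KO DSS over KO untreated, and this setting gives no interaction. The shares of all genes called under these settings are not given here, and the cause of these shifts was not tested. With RLE size factors, TMM without the family, pseudogene rows added and DESeq2, each of these counts stayed within 1.5 times that reported.

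Leaving out each library in turn gave, for KO untreated over WT untreated, 0 to 1 higher and 3 to 75 lower. KO DSS over WT DSS had 10 to 65 higher and 0 to 7 lower, with a median of 0.0042 to 0.19. KO DSS over KO untreated had 9 to 57 higher and 1 to 22 lower, with a median of -0.035 to 0.16. WT DSS over WT untreated had 32 to 72 lower, the fewest without WT DSS replicate 1 (32) and WT untreated replicate 1 (34). Positive interactions numbered 21 to 81, with a median of 0.18 to 0.36, the fewest without WT DSS replicate 1 (21), KO untreated replicate 1 (22), WT untreated replicate 1 (23) and KO untreated replicate 2 (29). The shares of all genes called also changed with the library left out, in each of these comparisons and in the interaction. These ranges therefore do not show whether the family's calls were less stable than those of other genes. Where 1 library of a group remained, it was assumed to vary like the other groups.

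Replicate numbers are shared across groups in the labels. Correlations of same-numbered libraries' deviations over the genes tested ran from -0.11 to 0.077. Such correlations cannot show whether these libraries shared a batch, and the labels do not say. With the replicate block, 46 were lower in KO untreated over WT untreated, 23 higher in KO DSS over WT DSS, 21 higher and 4 lower in KO DSS over KO untreated, 60 lower in WT DSS over WT untreated and 57 positive interactions. The shares of all genes called in that fit are not given here.

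Some named values changed sign. Scaled to the family, Rps6 had 0.015 in KO untreated over WT untreated. In WT DSS over WT untreated Rpl22 had 0.0078, Rpl5 0.0017, Rplp1 0.038 and Rps27 0.0055. The interactions of Rpl3, Rplp1 and Rps4x were -0.025, -0.029 and -0.038. With fragment length as a covariate, Rpl28 had 0.0018 in KO untreated over WT untreated and Rps27 0.0022 in WT DSS over WT untreated. The interactions of Rpl11, Rpl39, Rplp1 and Rps4x were then -0.12, -0.036, -0.032 and -0.044. No setting tested depth, and 83 of the 85 genes averaged 5 CPM or more.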
